A study of Mus musculus with 36 samples.

Results

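The differentially methylated domain (DMD) of *Rasgrf1* lies beside a block of tandem repeats, and the last stretch of the assayed DMD sequence before those repeats holds its CpGs more sparsely than the stretch before it. Described here are the 9 CpGs of that last stretch, within the 250-base reference that the authors deposited for their bisulfite assay. They were chosen by position, and are 9 of the 21 CpGs of that reference. The CpG nearest the start of the reference lies within the forward primer and carries no information on the template, which left 20 CpGs. Numbered from that end, CpGs 1 to 11 form a dense cluster and CpGs 12 to 20 are those described. Reads of oocytes were aligned to a second reference with 23 CpGs, in which the same 9 sites are present.

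The *Wnt1DR* allele carries the *Rasgrf1* DMD and its repeats, inserted downstream of *Wnt1*, a gene that is not imprinted. In genotypes the maternal allele is written first, so that +/DR animals received the insertion from the father and DR/+ animals from the mother. Tail DNA came from 12 +/DR and 8 DR/+ animals of generations 1 to 6. In their pedigrees the allele passed through fathers only, through mothers only, or through either sex in alternation. Each tail was counted as 1 value, though animals of a pedigree are related. At embryonic day 9.5 (e9.5), extraembryonic tissue, head, spine and visceral organs were each sampled once from +/DR and once from DR/+ embryos. Sperm came from 2 DR/DR animals without fractionation and from 2 +/DR animals whose sperm were separated by swim-up into a pellet and a supernatant that holds motile sperm. Oocytes were analysed as 2 pools of different genotype, DR/DR in pool 1 and DR/+ in pool 2. Every group carries the insertion, the PCR amplified the inserted copy only, and no wild-type sample was analysed here. The mice descend from embryonic stem cells targeted with the insertion, and the sources used here do not state how many clones transmitted it or whether the e9.5 tissues came from separate embryos, so p-values for these tissues measure the spread among the libraries.

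DNA methylation in mammals is found mostly at CpG dinucleotides, where a methyl group on the cytosine of one strand can be copied to the other strand after replication. At an imprinted region such as the *Rasgrf1* DMD the mark is placed in one germline and kept on that parental copy in the offspring, and at *Rasgrf1* the methylated copy is the paternal one. Bisulfite turns unmethylated cytosine into uracil, read as thymine, so each read reports the state of every CpG on 1 amplified strand.

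The 9 CpGs are shown first with 10 bases on either side, because their spacing sets the distances used below, and the dense cluster is shown beneath for contrast. Capitals mark the CpGs and the sequences are those of the unconverted plus strand.

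Bases 127 to 240, with the 9 CpGs: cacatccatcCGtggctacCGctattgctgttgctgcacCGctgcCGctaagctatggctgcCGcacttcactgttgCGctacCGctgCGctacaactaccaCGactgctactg

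Bases 52 to 126, with the dense cluster: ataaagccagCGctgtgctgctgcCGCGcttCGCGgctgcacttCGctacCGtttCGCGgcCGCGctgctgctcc

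In the native *Rasgrf1* copy of build NCBIM37, which matches the reference once, the printed stretches lie at chr9:89774563-89774676 and chr9:89774488-89774562. The cytosines of CpGs 12 to 20 are at 89774573, 89774582, 89774602, 89774608, 89774625, 89774640, 89774646, 89774651 and 89774665 of chromosome 9, so that CpGs 13 to 20 lie 9, 29, 35, 52, 67, 73, 78 and 92 bases after CpG 12. No annotated gene overlaps them, so they are intergenic there, and *Rasgrf1* starts 29947 bases beyond them on the same strand. A search of the build for repeats with a period of 35 to 45 bases found a block from 89774894 to 89776389, which begins about 321 bases after CpG 12 and 343 bases after CpG 11, the last of the dense cluster. Its edges were set by windows of 200 bases with at least 60 % of bases matching 1 period further on, so these distances are approximate. The best period was 40 bases, and the block of 1496 bases is shorter than the repeats the paper describes. The 9 CpGs span 94 bases with 9.57 CpGs per 100 bases and a GC content of 60.6 %, and the dense cluster spans 55 bases with 20.0 CpGs per 100 bases and a GC content of 72.7 %. Neighbours among the 9 stood 5 to 20 bases apart. CpGs 17 and 19 follow a G and CpG 20 follows an A, and each of the others follows a C.

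A read was used if the authors' software had not excluded it and it matched the reference at 98 % identity or more. The 36 libraries gave 1717 to 26773 such reads with a median of 7247, and each CpG had 1714 to 26766 calls in each library. The mean conversion of cytosines outside CpGs was 99.3 to 99.6 % per library. Levels are percentages of methylated calls, and intervals on a single library are 95 % Wilson intervals, which cover counting error only, because the reads carry no molecular identifiers and PCR copies of 1 molecule cannot be recognised. Each single CpG lacked a call in at most 0.946 % of the reads of a library. Reads in which every call was lost to a spreadsheet error (221 at 98 % identity, in 8 libraries) were not used. Libraries of 1 group were compared over their read patterns at the 20 CpGs. Of 110 pairs, 109 differed beyond sampling noise, and the exception was the pair of unfractionated sperm samples (chi-square p = 0.208). Over the 9 CpGs alone these sperm samples gave a chi-square p of 0.00103. Some other pairs were not told apart there, such as the oocyte pools (chi-square p = 0.0991) and maternal tails 31289 and 32181 (chi-square p = 0.126). The test counts reads as independent, so a small p does not show that samples are separate. The sperm samples carry different animal numbers and were counted as 2, and results were also computed with the pair counted as 1.

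Methylation of the 9 CpGs followed transmission. Among the 12 paternal tails the level was 75.1 % in the lowest, 92.1 % in the median and 94.3 % in the highest library, and among the 8 maternal tails it was 0.998 %, 1.14 % and 1.62 %. The groups did not overlap. The means were 90.6 % ± 5.13 (SD, n = 12) and 1.24 % ± 0.231 (SD, n = 8), a difference of 89.4 points (exact permutation test, two-sided p = 7.94e-06, the smallest this design allows). All 9 CpGs were called higher in paternal tails at an adjusted p under 0.05, as were 100 % of the 20 CpGs tested, so in this comparison the sparser CpGs did not stand apart. In sequencing run 1 alone, with 2 paternal and 4 maternal tails, the difference was 91.2 points with an exact permutation p of 0.0667, the smallest possible there. In run 2 alone it was 89.1 points. Every maternal tail of run 1 came from the maternal lineage and every maternal tail of run 2 from the alternating one. Run and lineage therefore cannot be told apart in maternal tails.

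Within paternal tails the 9 CpGs were not methylated equally, and the ends of the stretch were the least methylated. CpG 12 had 66.5 % in the lowest, 88.3 % in the median and 91.0 % in the highest tail, and CpG 20 had 75.3 %, 89.8 % and 94.1 %. CpG 15, in the middle, had 83.8 %, 94.4 % and 97.5 %. The lowest of the 9 CpGs was CpG 12 in 6 of 12 tails and CpG 20 in 2. Each CpG was then set against the mean of all 20 CpGs of its own library. CpG 12 deviated by -5.96 points from that mean (SD 3.59, n = 12, exact sign-flip test, adjusted p = 0.00651) and was above it in 1 tail. CpG 20 deviated by -3.70 points (SD 2.78, n = 12, exact sign-flip adjusted p = 0.00488) and was above it in 0 tails. These were 2 of the 9 CpGs called lower, where 10 % of the 20 were called lower, so no CpG of the dense cluster was. CpG 15 was called higher by 1.41 points (SD 1.59, exact sign-flip adjusted p = 0.0212), 1 of 9 against 40 % of the 20 CpGs. The other 6 were not called in either direction. With only the 8 paternal tails of at least 3000 reads, 0 of the 9 were called.

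Single tails had single CpGs with low levels, at different positions. Animal 32802 had 80.05 % at CpG 19 and 89.2 % or more at each of the other 8 CpGs. Animal 31153 had 83.0 % at CpG 14 and 88.7 % or more elsewhere, and animal 30999 had 88.5 % at CpG 19 and 87.9 % at CpG 12 with the rest at 92.3 % or more. Animal 32529 was the low library, with 56.8 % at CpG 13 and 66.5 % at CpG 12 against 85.0 % at CpG 16. It had 6286 reads used, where the 12 paternal tails had 2530 to 11213, and the number of templates behind them is unknown.

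**Figure D1:**
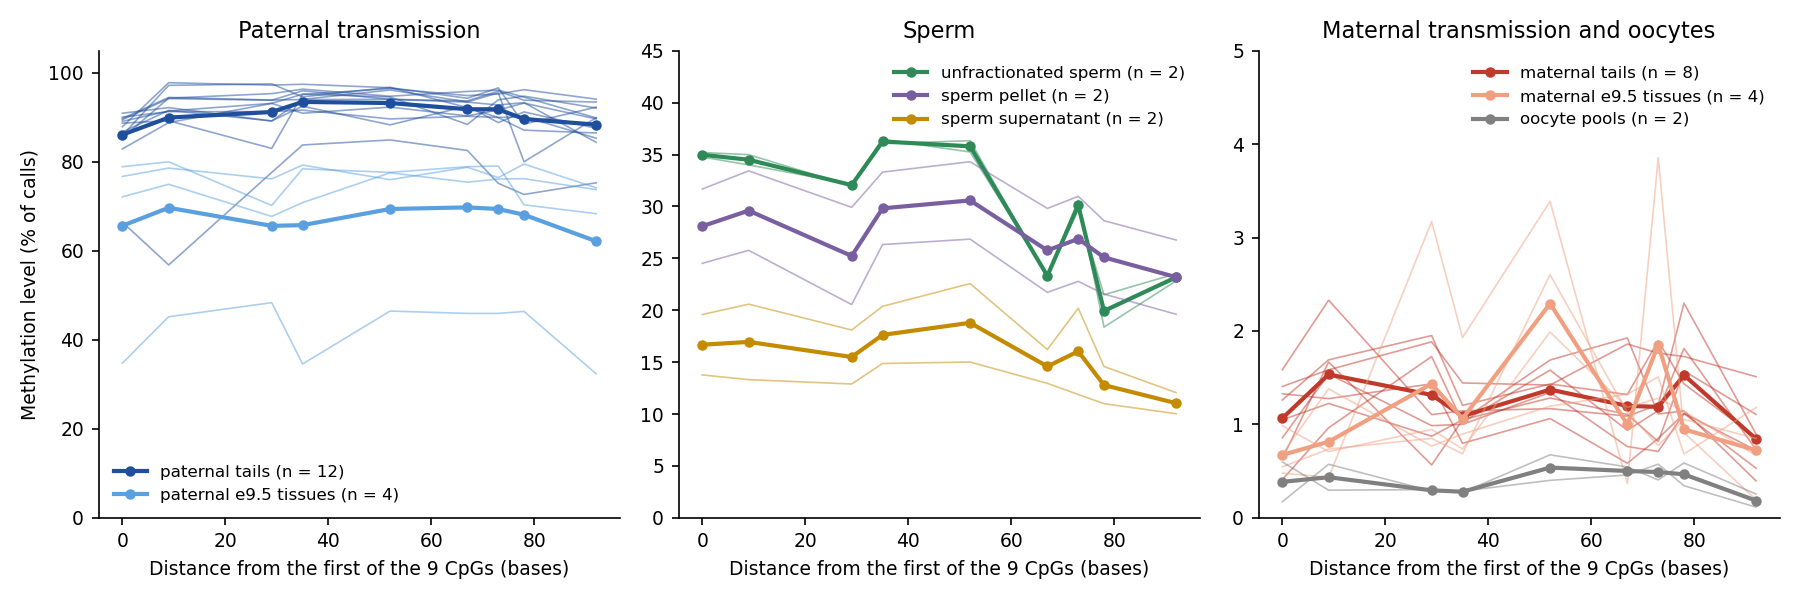
Methylation level (% of calls) of each of the 9 CpGs against its distance in bases from the first of them. Thin lines are libraries and thick lines with points are group means, and the 3 panels have different vertical scales. Unfractionated sperm falls to 23.3 % at CpG 17 and 19.9 % at CpG 19, while paternal tails are lowest at either end, at 86.1 % and 88.4 %.

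In maternal tails every CpG of the stretch had a low level. Group means ran from 0.844 % at CpG 20 to 1.53 % at CpG 13, and the highest level in any library was 2.33 %, at CpG 13. Set against the mean of the 20 CpGs of each library, all 9 were called lower (exact sign-flip adjusted p from 0.0104 to 0.0184), where 50 % of the 20 were called lower and 45 % higher, the latter all in the dense cluster. The only other CpG called lower was CpG 7. The size of these deviations was -0.680 to -1.37 points, and with the 4 maternal tails of either run alone no CpG could be called. CpG 20 was the lowest of the 9 in 4 of the 8 maternal tails. The mean conversion of cytosines outside CpGs was 99.49 to 99.64 % in these tails. Whether incomplete conversion contributed to these small deviations, or to the order of the CpGs, was not tested.

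At the 9 CpGs both oocyte pools had lower levels than any maternal tail. At the dense cluster both were higher, with 3.97 and 8.49 % against 2.36 to 3.45 % in maternal tails. The 9-CpG level was 0.357 % (95 % interval 0.275 to 0.463) in pool 1 and 0.437 % (0.405 to 0.472) in pool 2, and each of the 9 CpGs in either pool was between 0.115 and 0.675 %. CpG 20 was the lowest in both pools. The mean conversion of cytosines outside CpGs was 99.45 % in pool 1 and 99.58 % in pool 2. Levels this low therefore cannot be told apart from incomplete conversion, nor can their order among the CpGs be read as methylation. No read of either pool was methylated at all 9 CpGs, which, at 3 reads for a count of 0 in place of a Wilson interval, allows a share of up to 0.173 % of the 1735 reads with 9 calls in pool 1 and 0.0184 % of the 16274 in pool 2. From 1 to 8 were methylated in 2.997 and 3.84 % of reads. The pools are of different genotype and were amplified by an extra nested PCR, so no test was made between them.

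Sperm showed intermediate levels and a profile along the stretch with its low point at CpG 19 or CpG 20. The unfractionated samples had 29.96 % (95 % interval 29.4 to 30.6) and 30.1 % (29.6 to 30.6), the pellets 23.3 and 31.0 %, and the supernatants 18.3 and 12.9 %. Over the 4 animals, taking the mean of both fractions where there were 2, the level was 25.7 % ± 5.03 (SD, n = 4), 65.0 points below paternal tails without overlap (exact permutation p = 0.000549, the smallest possible). Against oocytes the unfractionated samples were 29.6 points higher. That comparison of 2 with 2 cannot give an exact permutation p under 0.333. The supernatant was lower than the pellet by 5.05 points in animal 35669 and by 18.1 points in animal 35670, and with 2 pairs the exact sign-flip p cannot go under 0.5. The mean difference was -11.6 points in the reads used and -23.5 points in reads from the opposite end of the PCR product, an alternative added after seeing the data.

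Along the stretch, the means over the 4 sperm animals were highest at CpGs 15 and 16 and lowest at CpGs 17, 19 and 20. The swim-up libraries did not all keep this order. In the pellets the mean was 25.2 % at CpG 14 and 25.8 % at CpG 17. The lowest CpG was CpG 19 in both unfractionated samples. In animal 35084 the levels were 36.05 % at CpG 15, 36.3 % at CpG 16, 23.2 % at CpG 17, 18.4 % at CpG 19 and 22.8 % at CpG 20. Animal 35090 had 36.5, 35.2, 23.4, 21.5 and 23.5 % at the same CpGs. CpG 18, between CpGs 17 and 19, was higher than both neighbours in these animals, at 30.6 and 29.6 %. The 4 swim-up libraries had their lowest level at CpG 20, from 10.0 to 26.8 %, and their highest at CpG 16, from 15.0 to 34.3 %. Across the 9 CpGs the mean profile of sperm animals correlated with that of paternal tails at a Pearson r of 0.283, and the profiles of both unfractionated samples with each other at 0.990 (9 CpGs of 1 PCR product in each case, so these are descriptions).

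The sperm profile was also examined in reads whose dense cluster was methylated. In reads with more than 50 % of the dense-cluster calls methylated, the mean over the 4 animals was 81.6 % at CpG 15 and 81.3 % at CpG 16 but 52.8 % at CpG 19 and 51.3 % at CpG 20. In the same class of reads paternal tails had 96.4, 96.0, 92.1 and 90.7 % at these CpGs. Over the 9 CpGs such reads were methylated at 69.4 % ± 1.97 (SD, n = 4) in sperm animals and 93.3 % ± 2.85 (SD, n = 12) in paternal tails, and the groups did not overlap. This difference, chosen after the data were seen, was 23.8 points (exact permutation p = 0.000549). Reads from the opposite end of the PCR product hold no dense-cluster calls and could not enter this class. From that end the 9-CpG level was higher than in the reads used in every sperm library except 35084. Of the reads with at least 6 of 11 dense-cluster CpGs methylated, 13.8 to 24.7 % in the 6 sperm libraries had 4 or fewer of the 9 CpGs methylated, against at most 1.92 % in any paternal tail.

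Paternal e9.5 tissues lay between sperm and tails. The 9-CpG level was 42.2 % in extraembryonic tissue, 77.3 % in head, 73.9 % in spine and 75.8 % in visceral organs. In maternal tissues it was 1.64, 1.07, 1.03 and 1.07 % in the same order. Paternal tissues were 66.1 points higher on average, and higher in 4 of 4 tissues. Paired by tissue the exact sign-flip p was 0.125, the smallest 4 pairs allow, and unpaired the exact permutation p was 0.0286. Against paternal tails, paternal e9.5 tissues were lower by 23.3 points (n = 4 and 12, exact permutation p = 0.00165), and without extraembryonic tissue the difference was -15.0 points. All 9 CpGs were called lower than in tails, as were 100 % of the 20. Head, spine and visceral organs were above the lowest tail (75.1 %) in 2 of 3 cases, so the groups overlapped. This overlap rests on animal 32529, as every other paternal tail had 89.8 % or more. Among reads with a methylated dense cluster, a class examined after seeing the data, the tissues had 92.2 % ± 3.66 (SD, n = 4) and differed from tails by -1.02 points (exact permutation p = 0.720), with 0 of 9 CpGs called.

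The CpGs with low levels varied among paternal tissues, with CpG 20 in common to most. Extraembryonic tissue had 34.8 % at CpG 12, 34.6 % at CpG 15 and 32.4 % at CpG 20, while the other 6 CpGs were at 45.2 to 48.4 %. Visceral organs had 70.2 % at CpG 14, 70.4 % at CpG 19 and 68.4 % at CpG 20, with 77.7 to 80.03 % elsewhere. Spine was lowest at CpG 14 with 67.8 %. In head the 9 levels stayed within 5.33 points. CpG 20 was the lowest of the 9 in 3 of the 4 tissues.

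In extraembryonic tissue and visceral organs these low CpGs fell together on the same reads. In paternal extraembryonic tissue 963 reads, 11.1 % of all and 44.5 % of those partly methylated, were unmethylated at exactly CpGs 12, 15 and 20. Of these reads 97.5 % carried 1 and the same pattern over the dense cluster, with 10 of 11 CpGs methylated. In visceral organs 623 reads (8.31 %) were unmethylated at exactly CpGs 14, 19 and 20, and 97.3 % of them were methylated at all 11 CpGs of the dense cluster. In spine the leading pattern lacked CpG 14 alone (6.97 % of reads), in tail 32802 it lacked CpG 19 alone (13.4 %) and in tail 32529 CpG 13 alone (9.19 %). The reads carry no molecular identifiers, so many reads of 1 pattern may be copies of few templates, and this was not tested. In sperm no partly methylated pattern was that frequent. The leading one held 3.02 % of reads in animal 35084 and 2.03 % in animal 35090, and in both it lacked CpG 19 alone.

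**Figure D2:**
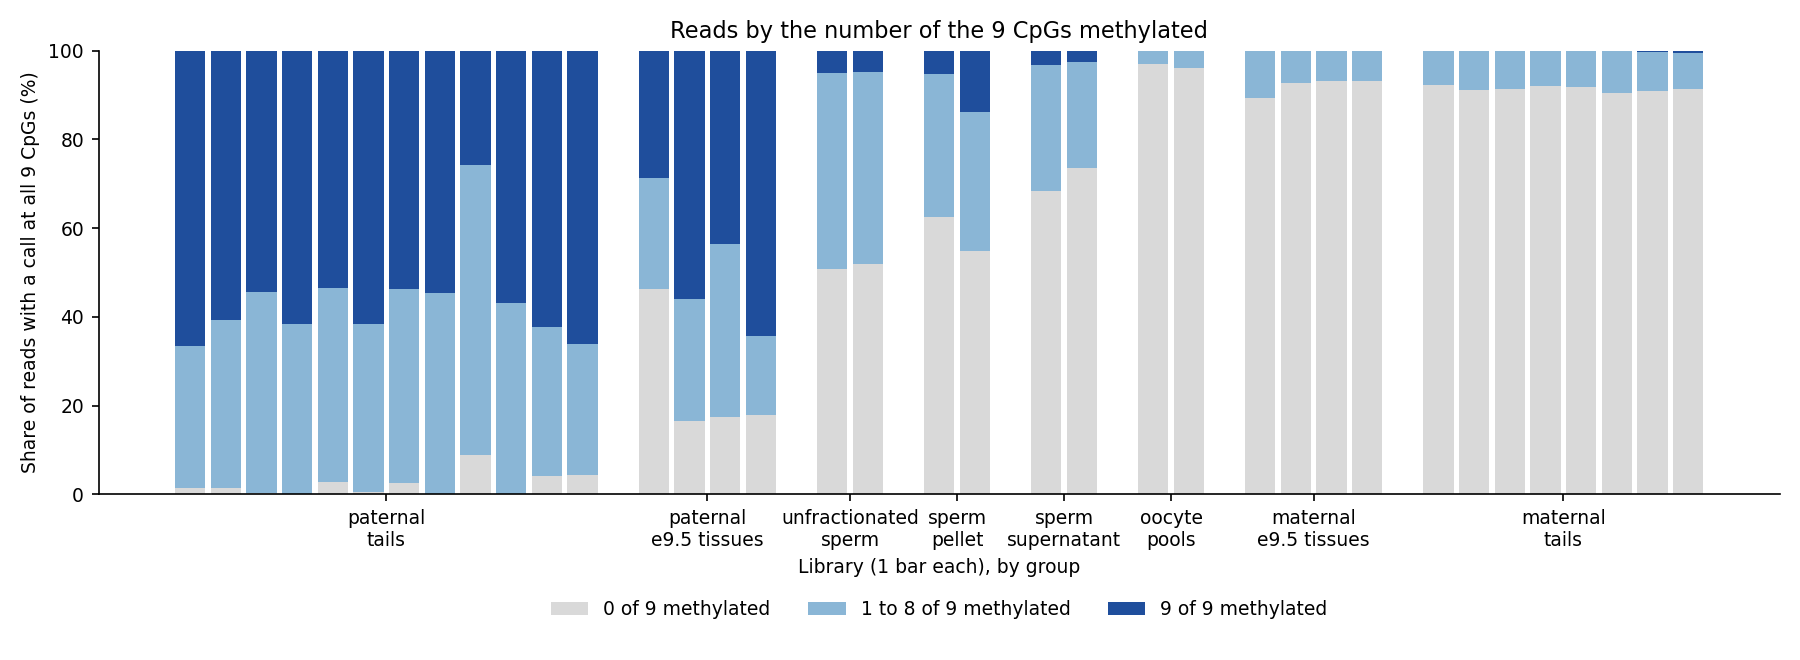
Share of reads (%) with 0, 1 to 8 or 9 of the 9 CpGs methylated, with 1 bar for each library, in groups. Sperm bars hold 50.7 to 73.7 % wholly unmethylated reads, and the bar with the smallest fully methylated share among paternal tails is animal 32529, at 25.9 %.

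Counted read by read, paternal tails were mostly fully or nearly fully methylated. Reads with all 9 CpGs methylated were 25.9 % in the lowest, 58.9 % in the median and 66.6 % in the highest tail, and reads with exactly 8 were 20.8, 28.5 and 34.1 %. Wholly unmethylated reads reached 8.90 % in animal 32529 and were 0.0283 % in animal 32339. In sperm, 50.7 to 73.7 % of reads had 0 of 9 and 2.52 to 13.9 % had 9 of 9, the most in the pellet of animal 35670. Paternal head, spine and visceral organs had 16.5, 17.4 and 17.8 % of reads with 0 of 9, and extraembryonic tissue had 46.4 %. In maternal tails 90.4 to 92.2 % of reads had 0 of 9, and 6.91 to 9.21 % had exactly 1.

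Concordance between CpGs was measured by the phi coefficient, the correlation of the calls at 2 CpGs over the reads of a library, which is 1 where both calls always match and 0 where they are unrelated. The 9 CpGs form 36 pairs, of which 10 are near (at most 20 bases apart) and 11 far (more than 50 bases apart). The mean over the 36 pairs was 0.594 to 0.745 in the 6 sperm libraries and 0.824, 0.782, 0.712 and 0.822 in paternal extraembryonic tissue, head, spine and visceral organs. In paternal tails it was 0.0322 in the lowest, 0.285 in the median and 0.557 in the highest library. In maternal tails it was 0.0199, 0.0889 and 0.362, in maternal e9.5 tissues 0.107 to 0.282, and in oocytes 0.0165 and 0.000117. Sperm animals exceeded paternal tails by 0.367 (n = 4 and 12, exact permutation p = 0.00110) and paternal e9.5 tissues exceeded them by 0.515 (exact permutation p = 0.000549). Paternal tails exceeded maternal tails by 0.111 (exact permutation p = 0.164), and with a log odds ratio in place of phi the difference turned to -0.70 (exact permutation p = 0.195). Phi over all reads depends on how wholly unmethylated and methylated reads are mixed, so it does not measure coupling between neighbours alone. The tails of lowest and highest phi, 32530 and 31819, had 0.0682 and 4.37 % of reads with 0 of 9. Paternal e9.5 tissues had 16.5 to 46.4 %. How far this mixture set the differences was not tested.

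Among reads with a methylated dense cluster the mean phi was 0.287 ± 0.0377 (SD, n = 4) in sperm animals, 0.173 ± 0.0842 (SD, n = 4) in paternal e9.5 tissues and 0.0473 ± 0.0320 (SD, n = 12) in paternal tails. Both differences from tails remained past the threshold in these reads, at 0.240 (exact permutation p = 0.000549) and 0.126 (exact permutation p = 0.00165).

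Near pairs had slightly higher phi than far pairs in paternal tails and sperm animals. The first and last CpGs of the stretch enter far pairs more often than near pairs. In paternal tails these end CpGs had the lowest mean levels, so distance was not separated from which CpGs form a pair. In paternal tails phi was 0.299 for near and 0.230 for far pairs, a mean difference of 0.0689 ± 0.0417 (SD, n = 12) that was above 0 in all 12 tails (exact sign-flip p = 0.000488, the smallest possible). Sperm animals had 0.664 and 0.598, a mean difference of 0.0659 ± 0.0309 (SD, n = 4) that was positive in 4 of 4, with an exact sign-flip p of 0.125 that 4 animals cannot better. For paternal e9.5 tissues the difference was 0.0212 (exact sign-flip p = 0.25), for maternal e9.5 tissues -0.0146 (exact sign-flip p = 0.125) and for maternal tails 0.00700 (exact sign-flip p = 0.398).

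The pairs that agreed best were not always the closest. In sperm animals the highest phi was that of CpGs 12 and 15, 35 bases apart (0.8003 ± 0.0295, SD, n = 4), and the lowest that of CpGs 14 and 19, 49 bases apart (0.510 ± 0.0761). In paternal e9.5 tissues the highest was that of CpGs 17 and 18, 6 bases apart (0.888 ± 0.0977, SD, n = 4), and the lowest that of CpGs 16 and 20, 40 bases apart (0.659 ± 0.0565). In paternal tails the highest was that of CpGs 15 and 16, 17 bases apart (0.361 ± 0.238, SD, n = 12), and the lowest that of the end CpGs 12 and 20, 92 bases apart (0.192 ± 0.140). Maternal tails had their highest phi at the same pair, CpGs 15 and 16 (0.195 ± 0.169, SD, n = 8). The SDs are between libraries, and the order of single pairs was not tested.

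**Figure D3:**
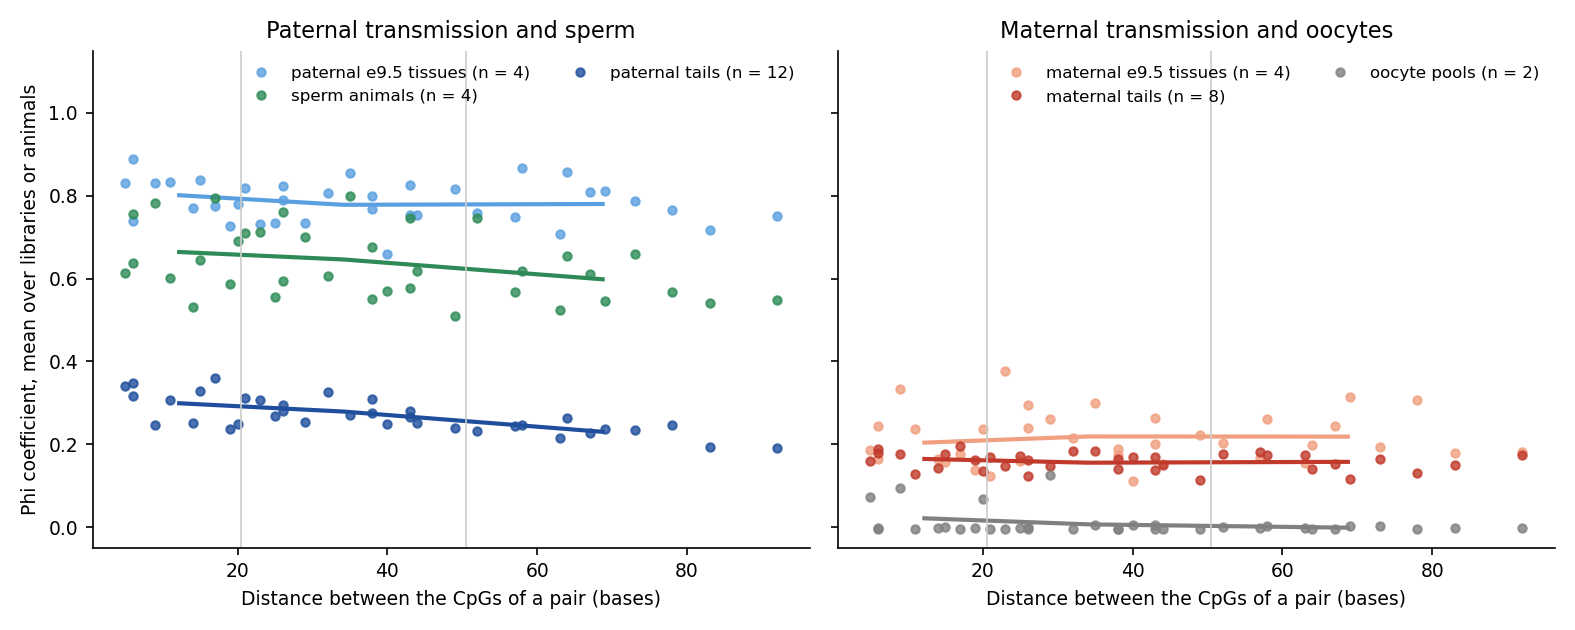
Phi coefficient of each of the 36 pairs of CpGs, as the mean over the libraries or animals of a group (points), against the distance between the CpGs in bases. Lines join the means of near, middle and far pairs, whose limits are the grey verticals at 20 and 50 bases. Paternal tails fall from 0.299 to 0.230 and sperm animals from 0.664 to 0.598, and maternal tails from 0.165 to 0.158, while maternal e9.5 tissues do not fall.

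Reads that changed state exactly once along the 9 CpGs were sorted by the side that was methylated. Such reads differ between CpGs 12 and 20, so the share is tied to the levels of these CpGs and is not a separate result. The mean level of CpG 12 was above that of CpG 20 in sperm animals (28.7 against 20.1 %). In paternal tails it was below (86.1 against 88.4 %). In sperm the methylated side was that of CpG 12 in 76.0 and 73.4 % of such reads in the unfractionated samples, in 59.2 and 59.8 % in the pellets and in 73.8 and 67.9 % in the supernatants. All 6 libraries were above 50 %, and the 4 animals averaged 69.9 % ± 5.72 (SD, n = 4, exact sign-flip p = 0.125, the smallest possible). In paternal tails the share was 27.6 % in the lowest, 41.7 % in the median and 74.2 % in the highest library, with a mean of 46.1 %, or -3.93 points from 50 % (n = 12, exact sign-flip p = 0.361). Paternal e9.5 tissues had 82.6, 77.9, 43.0 and 67.7 % from extraembryonic tissue to visceral organs (exact sign-flip p = 0.25), and their mean moved below 50 % when at least 2 CpGs were required on either side of the change.

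In the reads used, the 9 CpGs were less methylated than the dense cluster in most libraries. The oocyte pools had differences of -3.61 and -8.05 points, with the dense cluster at 3.97 and 8.49 %. In paternal tails the difference was -6.81 points in the lowest, -2.40 in the median and 0.872 in the highest library, which is animal 32802, and the mean was -2.62 ± 1.95 (SD, n = 12, exact sign-flip p = 0.00146). In maternal tails it was -2.04, -1.83 and -1.23 points, with a mean of -1.78 ± 0.236 (SD, n = 8, exact sign-flip p = 0.00781, the smallest possible). Sperm animals had -5.89 to -2.41 points, so 4 of 4 were negative (mean -4.25 ± 1.62, SD, n = 4, exact sign-flip p = 0.125, the smallest possible). Sperm animals and paternal tails did not differ past the threshold (difference -1.63 points, exact permutation p = 0.157), except that leaving out tail 32529 gave -2.01 points with an exact permutation p of 0.0469. Opposite-end reads, described below, hold no dense-cluster calls. Set against the dense cluster of the reads used, their 9-CpG level was lower in every maternal tail and most paternal tails. It was higher in every e9.5 tissue, with 81.8 against 78.6 % in paternal head. It was also higher in both pellets (38.2 against 26.3 % and 47.9 against 32.6 %) and sperm 35090 (44.9 against 35.4 %). The other sperm libraries went either way.

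Extraembryonic tissue went the other way. Its 9 CpGs exceeded the dense cluster by 4.96 points after paternal transmission and by 0.944 after maternal transmission, while head, spine and visceral organs had -1.29, -2.69 and -3.15 points in paternal and -0.0718, -0.248 and -0.158 points in maternal tissues. The means were -0.545 ± 3.75 (SD, n = 4, exact sign-flip p = 0.875) and 0.116 ± 0.556 (SD, n = 4, exact sign-flip p = 1.00). Without extraembryonic tissue they were -2.38 and -0.159 points. In paternal extraembryonic tissue 8.33 % of reads had at least 5 of the 9 CpGs methylated and at most 5 of the 11 in the dense cluster, against 0.628 to 1.28 % in the other paternal tissues.

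**Figure D4:**
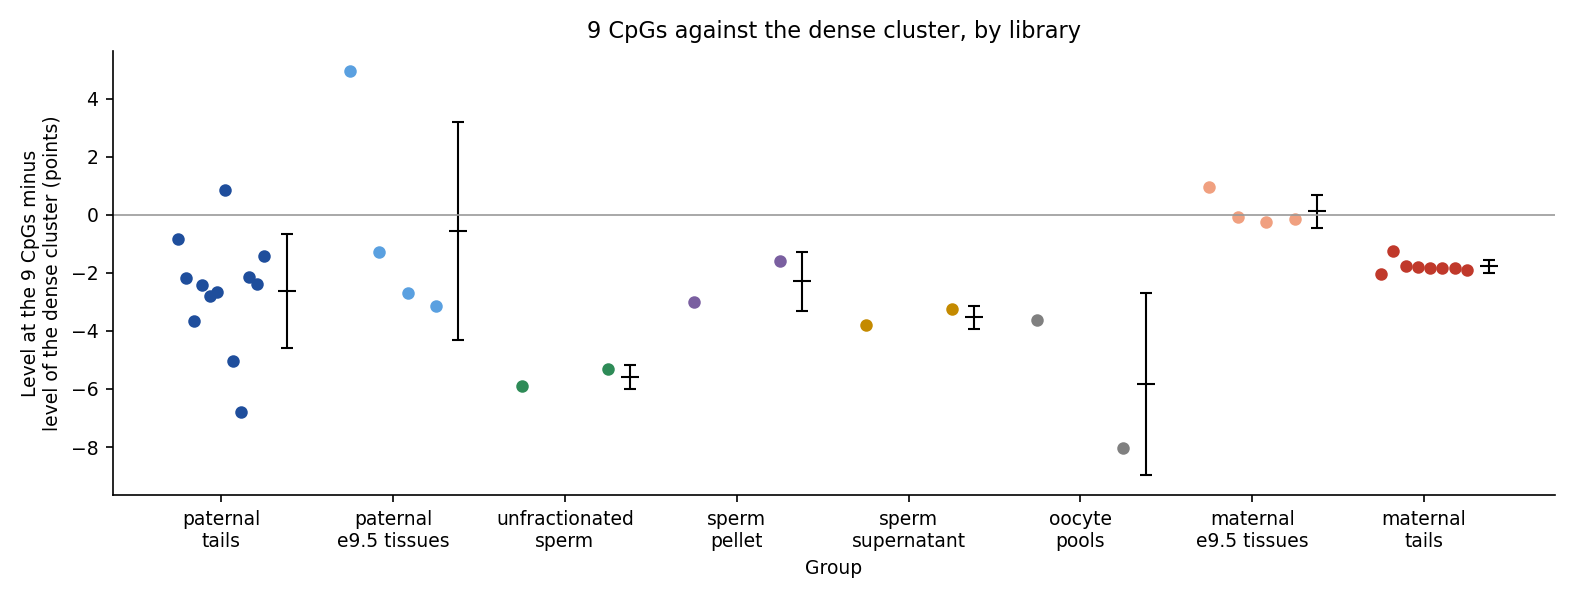
Level of the 9 CpGs minus level of the dense cluster (percentage points) in the reads used, with 1 point for each library. The crosses beside them are means with SD. Paternal extraembryonic tissue, at 4.96, is the highest point and oocyte pool 2, at -8.05, the lowest.

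The same 9 CpGs could be read a second time from the opposite end of the PCR product. Such reads had been excluded by the authors' software and align to the last part of the reference only, and the files give the number of methylated CpGs but no call at each. A window of their aligned length holds 9 CpGs and the 32 other cytosines that these reads report only where it begins 1, 2 or 3 bases before CpG 12, so the 9 CpGs are those described. Oocyte pools have no such value. In maternal tails the level was 0.859 to 2.44 % and in the 10 paternal tails with over 3000 such reads 81.0 to 94.1 %. In 30999 and 32530, with 153 and 206 such reads, it was 87.0 and 88.1 %. Paternal extraembryonic tissue, head, spine and visceral organs had 48.2, 81.8, 79.5 and 80.6 %, each 4.45 to 5.98 points above the reads used.

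The pellets and 1 unfractionated sperm sample were the libraries in which the ends of the product differed most. The pellets of 35669 and 35670 had 38.2 and 47.9 % from the opposite end against 23.3 and 31.0 % in the reads used, and animal 35090 had 44.9 % (95 % interval 44.2 to 45.6, 2151 reads) against 30.1 %. Animal 35084 had 27.1 % (25.4 to 29.0, 253 reads) against 29.96 %, and the supernatants 21.5 and 17.7 % against 18.3 and 12.9 %. Sperm animals remained 57.5 points below paternal tails from the opposite end (exact permutation p = 0.000549). What sets the ends apart was not tested.

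**Figure D5:**
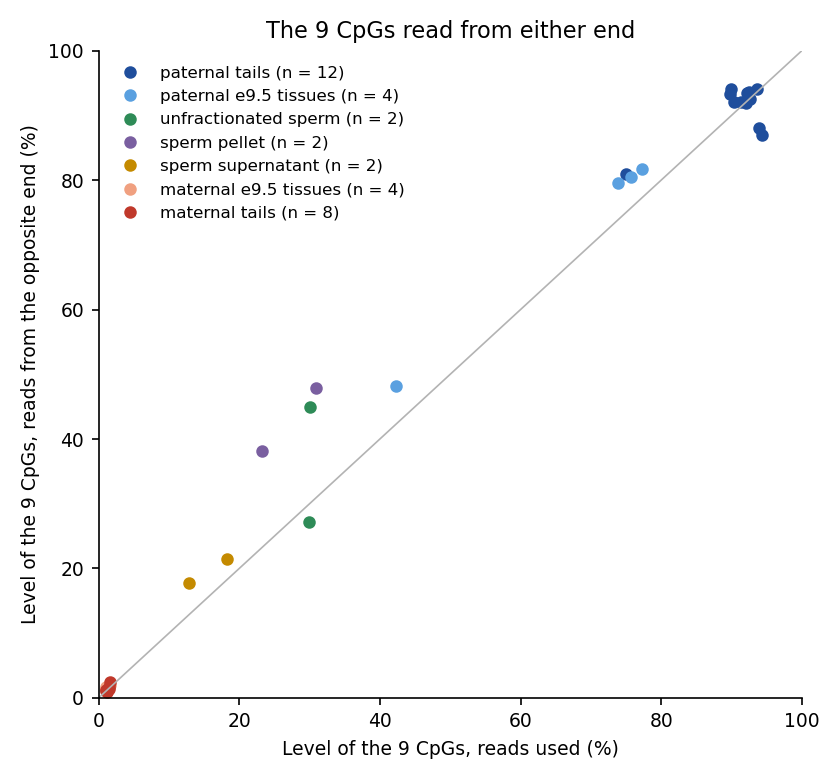
Level of the 9 CpGs (%) in reads from the opposite end of the PCR product against the level in the reads used, with 1 point for each of the 34 libraries other than the oocyte pools and the grey line where both are equal. The sperm pellets, at 38.2 and 47.9 % against 23.3 and 31.0 %, and sperm 35090 lie farthest above the line.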

How the data were processed

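The authors converted DNA with bisulfite, amplified the inserted allele, sequenced the product on a MiSeq in 2 runs, and aligned reads of 250 nt to the unconverted reference with a local installation of QUMA (version not given in the sources used here). The deposited files list, for each read, counts of methylated CpGs, unconverted CpHs, mismatches and gaps, the percent of CpGs methylated, of CpHs converted and of identity, and a string of calls. From these, reads of 98 % identity and 95 % conversion or more were kept, and libraries needed 1000 calls at each CpG. Any other letter at a CpG was treated as no call. Group means were compared by exact two-sided permutation tests over libraries or animals, and paired or single-group values by exact sign-flip tests. Fractions of a swim-up were paired by animal and e9.5 tissues by tissue. Tests across CpGs covered all 20, with Benjamini-Hochberg adjustment at 0.05. All 9 CpGs are named, and pairs of CpGs only where their mean phi was the highest or lowest of a group. The members and lists were chosen with earlier results of these data known. The code was tested on simulated data. Alternatives changed 1 choice at a time, among them an identity of 90 %, full conversion, 3000 reads, each run alone and each library left out. Python 3.11.15, NumPy 2.4.6 and SciPy 1.17.1 were used. Positions come from NCBIM37 and its GENCODE annotation.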

Additional observations from a re-analysis of the deposited data

Results flagged for a closer look

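In 39 sets of values over groups of 4 to 10 samples, the highest or lowest sample stood apart from the rest in 12 by Dixon's criterion, which chance alone meets in about 1 of 20 groups. The sets are not independent, because the 9-CpG level and single CpGs of the same libraries were each counted. The e9.5 libraries are also different tissues and not replicates. The count of 12 therefore cannot be read as an excess over chance. Most of the 12 were extraembryonic tissue. After paternal transmission its 9-CpG level was 42.2 %, where the other tissues had 73.9 to 77.3 %, and its levels at CpGs 12, 13, 16, 17, 18 and 20 were 34.8, 45.2, 46.5, 45.95, 45.95 and 32.4 %. CpGs 17 and 18 had the same level because they carried the same number of methylated calls. After maternal transmission the tissue had a 9-CpG level of 1.64 %, where the others had 1.03 to 1.07 %, with 3.17 % at CpG 14, 1.93 % at CpG 15 and an excess over the dense cluster of 0.944 points. The mean conversion of this library was 99.27 %, the lowest of the 36, against 99.52 to 99.57 % in the other maternal tissues. Whether conversion contributed to its level was not tested. In that library the leading partly methylated pattern had CpG 18 alone methylated and held 316 reads, 3.62 % of all, and 96.8 % of them were unmethylated throughout the dense cluster. Among maternal tails the difference from the dense cluster was -1.23 points in animal 31075 and -2.04 to -1.75 points in the other 7.

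Reads from the opposite end of the PCR product were used in no main comparison, and in 5 groups their mean level was above that of the highest maternal library, a tail at 2.44 %. Their mean levels at the 9 CpGs were 36.03 % in unfractionated sperm, 43.0 % in sperm pellets, 19.6 % in supernatants, 72.5 % in paternal e9.5 tissues and 91.1 % in paternal tails.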

How the results depend on the processing

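Of 27 results recomputed under 444 alternative values, 424 kept their direction and their side of the threshold, with called counts within 1.5 times. In run 1 alone the difference between paternal and maternal tails was 91.2 points and 0 of 9 CpGs could be called, and the 9 CpGs differed from the dense cluster in maternal tails by -1.75 points in run 1 and -1.81 in run 2, with 0 of 9 deviating CpGs in either. A run holds too few tails for these tests to reach the threshold, and in maternal tails run coincides with lineage. Paternal tails of at least 3000 reads gave 0 deviating CpGs, and a polarity of 2.28 points from 50 % in place of -3.93. With a log odds ratio in place of phi, the difference in concordance between paternal and maternal tails was -0.70 and that between near and far pairs in maternal tails -0.0390, and the latter was -7.76e-05 with phi in run 2. None of these passed the threshold with either sign, and the cause was not tested. In paternal e9.5 tissues the difference from the dense cluster was 0.499 points where every other cytosine had to be converted and -2.38 to 0.324 with 1 tissue left out, among them 0.171 without spine, and in maternal tissues it was -0.159 to 0.238. Polarity in paternal e9.5 tissues was -11.2 points with at least 2 CpGs on either side (n = 3). The contrast of sperm animals and tails in the difference from the dense cluster was -2.25 to -1.09 points with 1 sample left out, with an exact permutation p of 0.0469 without tail 32529 only (-2.01). Among reads with a methylated dense cluster, added after seeing the data, paternal e9.5 tissues differed from tails by -1.02 points with 0 CpGs called. Without the replicate block by tissue, the 66.1 points between paternal and maternal tissues had an exact permutation p of 0.0286, and without pairing by animal the supernatant still differed from the pellet by -11.6 points, with an exact permutation p of 0.333. Sperm against oocytes could not be computed with at least 3000 reads, nor concordance of maternal groups in reads with a methylated dense cluster. At levels near 1 %, as in maternal and oocyte libraries, phi rests on few methylated reads.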
